A study of Mus musculus with 18 samples.

Results

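Described here are 10 genes of Notch signalling and of the choice between absorptive and secretory fate, in intestinal stem cells with and without Dlg1. They are the receptors Notch1 and Notch2, the ligands Dll1, Dll4 and Jag1, the DNA-binding factor Rbpj, the target genes Hes1 and Hey1, and the secretory factors Atoh1 and Gfi1. They were chosen by name, and all 10 were found by Ensembl identifier among 43432 genes in both count tables. The samples were mouse intestinal epithelial cells sorted as stem cells, 5000 to 10000 cells per library, from animals of 8 to 16 weeks. All animals received tamoxifen, 48 hours (2 days) or 14 days before dissection. The 4 groups were wild type at 2 days (4 libraries), Dlg1 conditional knock out at 2 days (4), wild type at 14 days (5) and Dlg1 conditional knock out at 14 days (5). The sources used here do not state the Cre line that drives the deletion, the marker used for sorting or whether each library was a separate animal. The p-values therefore measure the spread between these libraries, which may in part be technical.

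In the Notch pathway a Delta or Jagged ligand on one cell binds a Notch receptor on its neighbour. The receptor is cut by an ADAM protease and by gamma-secretase, and its intracellular part enters the nucleus and joins RBPJ and Mastermind proteins to switch on target genes such as Hes1. In the crypt HES1 represses Atoh1, so cells with active Notch stay stem cells or become absorptive. Cells that express ATOH1 become secretory and display DLL1 and DLL4 to the cells around them. GFI1 acts downstream of ATOH1 in goblet and Paneth cells.

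Promoter sequence is shown for Atoh1, the gene with the largest difference between genotypes at 14 days among those tested, and for Dll4, whose level followed that of Atoh1 across the libraries at 2 days. Each is the 250 bases before the RefSeq transcription start in GRCm38.p6, 5′ to 3′ on the plus strand, at chr6:64728875-64729124 for Atoh1 and chr2:119325534-119325783 for Dll4. Neither window overlaps an annotated exon of its gene. Capitals mark matches to the N-box bound by HES proteins, CACNAG, or to the RBPJ core TGGGAA, on either strand.
Atoh1: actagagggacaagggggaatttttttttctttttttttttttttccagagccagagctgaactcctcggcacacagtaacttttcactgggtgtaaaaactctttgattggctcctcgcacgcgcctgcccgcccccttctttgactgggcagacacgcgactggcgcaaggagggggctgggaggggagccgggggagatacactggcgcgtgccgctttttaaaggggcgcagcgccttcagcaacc
Dll4: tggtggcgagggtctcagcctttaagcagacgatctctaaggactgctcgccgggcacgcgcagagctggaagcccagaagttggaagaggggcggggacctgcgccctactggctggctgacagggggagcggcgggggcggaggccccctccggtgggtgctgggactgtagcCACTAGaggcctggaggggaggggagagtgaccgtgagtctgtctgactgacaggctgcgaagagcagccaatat
The Dll4 window holds 1 N-box, whose first base lies at -75, and the Atoh1 window holds none. Neither holds the RBPJ core. Of 32851 RefSeq promoter windows of this length, 36.7% hold an N-box and 21.6% the RBPJ core. RefSeq windows were found for 8 of the 10 genes, in 11 windows, of which 3 hold an N-box and 2, both of Rbpj, the RBPJ core. No window was found for Hes1 and Hey1. A match of these letters is a description of the window and was not tested against the expression data.

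Dlg1, the deleted gene, held 48.3 to 69.5 CPM in wild-type and 38.4 to 58.0 CPM in knock-out libraries at 2 days, and 60.5 to 85.8 CPM and 41.8 to 70.3 CPM at 14 days apart from the library labelled knock-out 5, which had the highest value of all, at 101 CPM. The log2 fold change of Dlg1 was -0.38 ± 0.19 (SE) at 2 days and -0.17 ± 0.22 (SE) at 14 days, and neither passed (adjusted p = 0.866 and 0.957, edgeR quasi-likelihood F-test with all genes adjusted by Benjamini-Hochberg). The counts cover the whole gene, and the sources used here do not state which exons were deleted, so these values are no check of the deletion. The 2-day knock-out columns are named Dmin, read here as Dlg1 minus, and every 2-day comparison rests on that reading and on the labels.

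Libraries held 14.8 to 40.5 M counts at 2 days and 11.1 to 15.7 M at 14 days, with 26.1% to 49.1% and 6.21% to 26.3% of counts on mitochondrially encoded genes. Wild-type library 1 at 2 days and the library labelled knock-out 5 at 14 days stood apart by the lowest TMM scaling factor of their time, 0.68 and 0.63. The latter is also the one with the highest Dlg1 value. Knock-out libraries 1 and 4 at 14 days, at 64.0 and 70.3 CPM of Dlg1, lay within the wild-type range as well. Paneth and enterocyte marker sums peaked in wild-type library 3 at 14 days, at 19846 and 6259 CPM. All 12 stem cell markers of the list used here, Lgr5 among them, were detected in every group. Their summed level at 2 days was 5574 to 6078 CPM in wild-type and 4667 to 5507 CPM in knock-out libraries, without overlap. At 2 days 9 of the 12 had a negative log2 fold change, with a median of -0.20, and none passed. Whether this bears on the other 2-day values was not tested. At 14 days the sum was 2753 to 3807 CPM in wild-type and 2521 to 3529 CPM in knock-out libraries, which overlapped. There 5 of 12 were negative, with a median of 0.04. Since Notch1, Dll4, Jag1 and Hey1 are also genes of blood vessels, endothelial markers were measured. The sum of these 10 markers was 7.02 to 16.4 CPM at 2 days and 8.44 to 17.97 CPM at 14 days. Of the 10, Cdh5, Tie1, Emcn and Cldn5 had no count in any library at 2 days, and the others had counts. At 14 days every one was detected in wild type, and all but Cldn5 in the knock-out. The part of vessel cells in the levels of Notch1, Dll4, Jag1 and Hey1 was not tested. Markers of immune cells summed to at most 11.8 CPM and those of fibroblasts and muscle to at most 20.0 CPM in any library. CPM are counts per 1000000 counts of a library, scaled within each time by the TMM method. In bulk samples fewer cells of a type and less RNA per cell cannot be told apart.

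No difference between genotypes passed the test for any of these genes. None of the 10 genes at 2 days and none of the 9 tested at 14 days passed the test (edgeR quasi-likelihood F-test, Benjamini-Hochberg adjusted across all genes, threshold 0.05). Over all genes the same test called 0% of 13031 at 2 days and 0% of 13991 at 14 days. At an unadjusted p under 0.05 there were 0 of the 10 genes at 2 days, against 4.91% of all genes, and 1 of 9 at 14 days, against 3.99%. These shares of all genes moved with single libraries. At 14 days the share was 12.2% without wild-type library 3, 6.96% without the library labelled knock-out 5 and 2.22% without wild-type library 2, and it was also under 3% without wild-type library 4 or 5 or knock-out library 1 or 3. At 2 days it was 3.06% without knock-out library 4 and at most 6.46% without any other. DESeq2 called 13 and 1 of all genes and limma voom 0 at either time, and neither called any of the 10. The median log2 fold change of the 10 was -0.08 at 2 days, with 4 positive, beside 0.01 over all genes with 51.0% positive. At 14 days the median of the 9 was 0.04, with 7 positive, beside 0.01 over all genes with 51.0% positive.

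**Figure D1:**
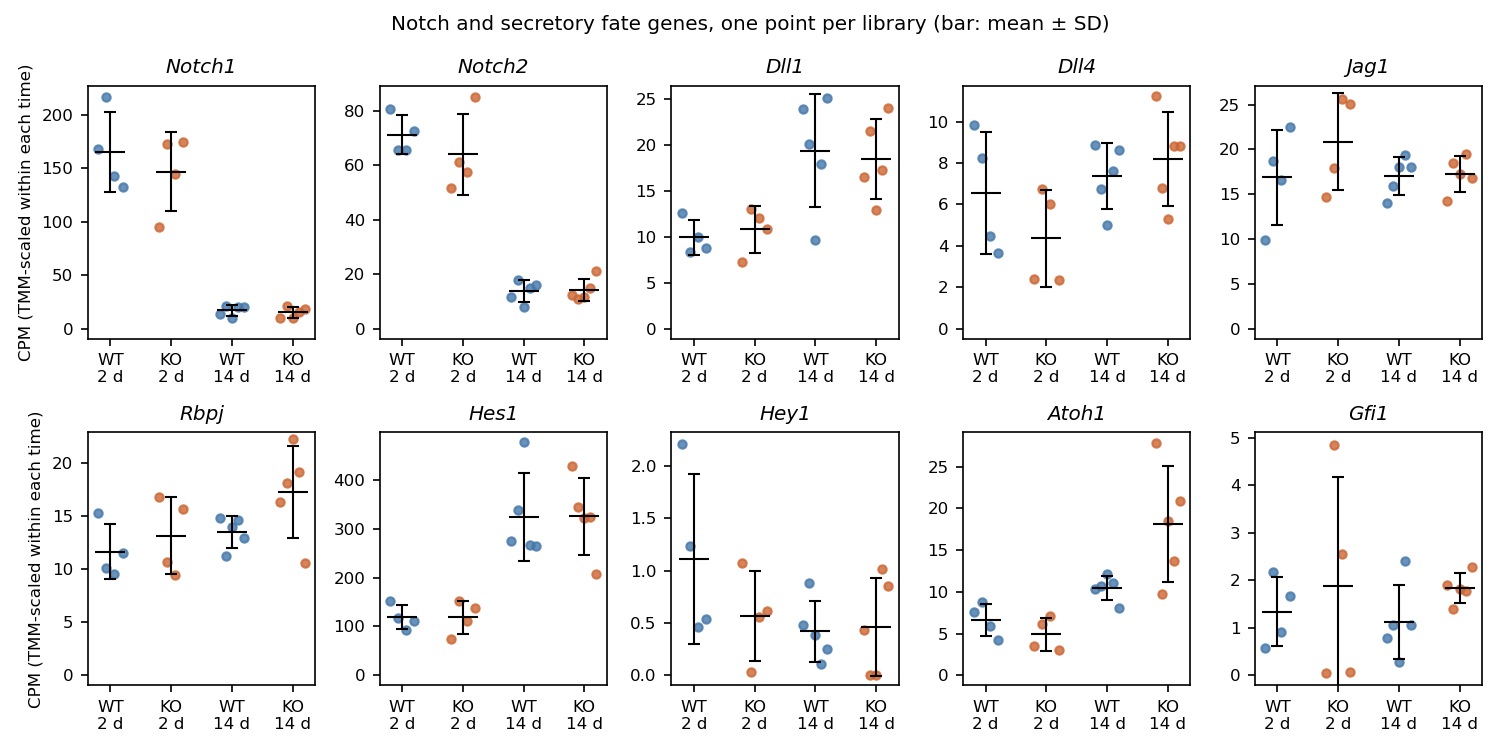
Level of each of the 10 genes (vertical axis, CPM scaled within each time) in wild type (WT) and Dlg1 knock-out (KO) libraries at 2 and 14 days (d). Each point is 1 library, and bars give the mean and SD. Genotypes overlap in every panel at each time, and 4 of 5 knock-out libraries at 14 days lie above all wild-type libraries for Atoh1 and for Rbpj.

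Notch1 (ENSMUSG00000026923, chromosome 2, 26457903 to 26516663, minus strand, GRCm38) encodes the receptor that, with Notch2, keeps crypt cells out of the secretory fate. Its level at 2 days was 168, 217, 143 and 133 CPM across wild type, libraries 1 to 4 in order, and 95.6, 173, 145 and 174 CPM across the knock-out, also in order. The groups overlapped widely, and knock-out library 1 alone lay below all wild-type libraries. After 14 days wild-type libraries 1 to 5 held 13.9, 21.2, 10.4, 20.9 and 20.7 CPM, and knock-out libraries 10.6, 21.1, 10.3, 15.6 and 18.8 CPM in the same order. Both genotypes spanned the same range. The log2 fold change of knock-out over wild type was -0.17 ± 0.22 (SE) at 2 days and -0.19 ± 0.26 (SE) at 14 days, with 95% intervals of -0.64 to 0.31 and -0.75 to 0.37.

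Notch2 (ENSMUSG00000027878, chromosome 3, 98013527 to 98150361, plus strand) encodes the second Notch receptor of the crypt. At 2 days it held 80.7, 65.6, 65.7 and 72.7 CPM in wild-type and 51.6, 61.3, 57.6 and 85.2 CPM in knock-out libraries. In 3 of 4 knock-out libraries the value lay below every wild-type library, while knock-out library 4 had the highest of all 8. The values at 14 days were 11.6, 18.1, 8.15, 14.97 and 16.2 CPM in wild-type and 12.5, 10.9, 11.8, 14.99 and 21.1 CPM in knock-out libraries. The log2 fold changes were -0.15 ± 0.18 (SE) and 0.04 ± 0.25 (SE). For neither receptor did the exact permutation test separate the genotypes, with two-sided p of 0.343 to 0.849 over both times.

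Dll1 (ENSMUSG00000014773, chromosome 17, 15367354 to 15376872, minus strand) is a Delta ligand displayed by secretory cells and their precursors. It held 12.6, 8.42, 10.01 and 8.79 CPM in wild-type and 7.28, 13.0, 12.1 and 10.9 CPM in knock-out libraries at 2 days. The later libraries held 23.9, 20.2, 9.69, 17.99 and 25.2 CPM in wild-type and 16.6, 21.5, 12.9, 17.3 and 24.1 CPM in knock-out libraries. The genotypes overlapped at both times, with log2 fold changes of 0.12 ± 0.28 (SE) and -0.08 ± 0.25 (SE).

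Dll4 (ENSMUSG00000027314, chromosome 2, 119325784 to 119335962, plus strand) is the other Delta ligand of the crypt. At 2 days it held 9.81, 8.22, 4.49 and 3.67 CPM in wild-type libraries 1 to 4 and 2.39, 6.73, 6.03 and 2.33 CPM in knock-out libraries 1 to 4. Knock-out libraries 1 and 4 were the lowest of all 8. Its level at 14 days was 8.85, 6.75, 4.99, 7.62 and 8.64 CPM in wild-type and 11.3, 6.78, 5.30, 8.85 and 8.84 CPM in knock-out libraries. The log2 fold change was -0.58 ± 0.48 (SE) at 2 days and 0.15 ± 0.26 (SE) at 14 days. The wide interval at 2 days, from -1.63 to 0.47, goes with the spread inside each genotype.

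Jag1 (ENSMUSG00000027276, chromosome 2, 137081456 to 137116644, minus strand) encodes a ligand of the Jagged class. It ranged from 9.85 to 22.5 CPM in wild-type and from 14.7 to 25.7 CPM in knock-out libraries at 2 days, where 2 of 4 knock-out libraries lay above all wild-type ones. The genotypes were close at 14 days, at 17.1 ± 2.13 CPM in wild-type and 17.3 ± 1.99 CPM in knock-out libraries (SD, n = 5 each), and overlapped. Its log2 fold changes were 0.30 ± 0.29 (SE) and 0.02 ± 0.17 (SE), and at 14 days the 95% interval ran from -0.34 to 0.38.

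Rbpj (ENSMUSG00000039191, chromosome 5, 53466152 to 53657362, plus strand) encodes the DNA-binding partner of all Notch receptors. It held 15.3, 10.1, 9.55 and 11.5 CPM in wild-type and 16.8, 10.7, 9.40 and 15.7 CPM in knock-out libraries at 2 days. The 14-day values were 14.8, 11.2, 13.9, 14.6 and 12.9 CPM in wild type and 16.3, 18.1, 22.2, 19.1 and 10.6 CPM in the knock-out, libraries 1 to 5 in order. Knock-out libraries 1 to 4 lay above every wild-type library. The library labelled knock-out 5, which had the lowest TMM scaling factor at 14 days, lay below all of them. The log2 fold change was 0.17 ± 0.28 (SE) at 2 days and 0.36 ± 0.21 (SE) at 14 days, where the exact permutation test gave a two-sided p of 0.143. Without the library labelled knock-out 5 the log2 fold change of Rbpj at 14 days was 0.47, and it did not pass in the edgeR quasi-likelihood F-test, Benjamini-Hochberg adjusted.

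Hes1 (ENSMUSG00000022528, chromosome 16, 30064384 to 30067796, plus strand) encodes the repressor through which Notch holds Atoh1 down, and it lies 1.60 Mb from Dlg1 on the same chromosome. At 2 days it held 152, 118, 93.6 and 112 CPM in wild-type and 74.0, 152, 111 and 138 CPM in knock-out libraries. The 14-day libraries held 276, 339, 477, 266 and 265 CPM in wild-type and 428, 345, 322, 324 and 208 CPM in knock-out libraries. The genotype means were nearly equal at both times, at 119 ± 24.6 and 119 ± 34.3 CPM at 2 days (SD, n = 4 each) and 324 ± 90.5 and 325 ± 78.6 CPM at 14 days (SD, n = 5 each). The log2 fold changes were -0.003 ± 0.23 (SE) and 0.004 ± 0.22 (SE). The 95% intervals of -0.50 to 0.49 and -0.46 to 0.47 leave room for changes of that size in either direction. They are not the limit of what the test adjusted over all genes could call.

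Hey1 (ENSMUSG00000040289, chromosome 3, 8663359 to 8667256, minus strand) encodes a repressor related to HES1 and was close to the limit of detection. It had 61, 25, 8 and 10 raw counts in wild-type and 22, 1, 10 and 10 in knock-out libraries at 2 days. The 14-day libraries had 2 to 15 raw counts in wild-type and 0 to 12 in knock-out libraries, and Hey1 was too low to be tested there. Its log2 fold change at 2 days was -0.99 ± 0.92 (SE), with a 95% interval of -3.01 to 1.02.

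Atoh1 (ENSMUSG00000073043, chromosome 6, 64729125 to 64731245, plus strand, a single exon) encodes the factor that commits a cell to the secretory fate. Wild-type libraries 1 to 4 held 7.57, 8.76, 5.93 and 4.26 CPM at 2 days, and knock-out libraries 3.47, 6.15, 7.08 and 3.01 CPM in the same order. Knock-out libraries 1 and 4 lay below all wild-type ones, and the other two lay within their range. Wild-type libraries 1 to 5 held 10.3, 10.7, 12.1, 11.1 and 8.08 CPM at 14 days, and knock-out libraries 27.8, 9.71, 18.5, 13.7 and 20.8 CPM in the same order. Here 4 of 5 knock-out libraries lay above every wild-type library, and knock-out library 2 lay inside the wild-type range. How many of all genes had 4 of 5 knock-out libraries above every wild-type library was not counted.

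The means of Atoh1 were 6.63 ± 1.96 CPM in wild-type and 4.93 ± 1.99 CPM in knock-out libraries at 2 days (SD, n = 4 each). At 14 days they were 10.5 ± 1.49 and 18.1 ± 6.94 CPM (SD, n = 5 each), so the knock-out libraries were also more spread. The log2 fold change was -0.43 ± 0.40 (SE) at 2 days and 0.79 ± 0.26 (SE) at 14 days, or 1.73-fold, with 95% intervals of -1.29 to 0.44 and 0.23 to 1.34. The exact permutation test gave two-sided p of 0.229 and 0.0476, and the latter was the single p under 0.05 among 20 such tests of the 10 genes at both times. This test was run for the 10 genes alone, so the share of all genes under 0.05 by it is not known. Over all genes Atoh1 did not pass at 14 days (unadjusted p = 0.00867, adjusted p = 0.957 in the edgeR quasi-likelihood F-test, Benjamini-Hochberg adjusted). The genotype effect on Atoh1 at 14 days exceeded that at 2 days by 1.20 ± 0.46 (SE) on the log2 scale, which did not pass either (unadjusted p = 0.0155, adjusted p = 0.764, same test). In this comparison of effects the test called 0% of 15458 genes, with 5.96% at an unadjusted p under 0.05, and Atoh1 was the 1 gene of the 10 under that value. In the same comparison all 12 enterocyte markers were negative, with a median of -2.05 and 8 at an unadjusted p under 0.05, and none passed; their part in the value of Atoh1 was not tested.

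At 14 days the columns of the table fall under the letters B and J in their names, whose meaning the sources used here do not state. Atoh1 was higher in the knock-out under both letters, at 18.8 against 10.5 CPM under B (2 libraries of each genotype) and 17.6 against 10.4 CPM under J (3 of each). Without the library labelled knock-out 5 its log2 fold change was 0.72, without knock-out library 1, the highest, 0.58, and without wild-type library 3 0.84.

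**Figure D2:**
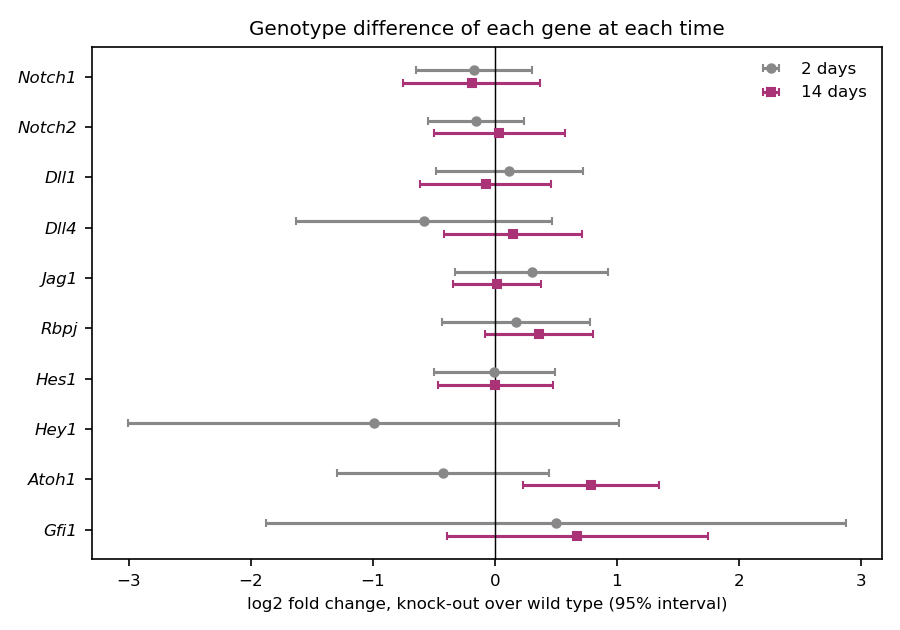
Log2 fold change of knock-out over wild type (horizontal axis) for each gene at 2 days (circles) and 14 days (squares), with 95% intervals. Every interval crosses 0 except that of Atoh1 at 14 days, which does not pass adjustment over all genes, and Hey1 was tested at 2 days alone.

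Goblet cell markers stood in the same order as Atoh1 across the knock-out libraries at 14 days, and not across wild type. The summed level of 10 goblet cell markers, of which Atoh1 is 1, was 2330, 1599, 6664, 2853 and 2403 CPM across wild type, libraries 1 to 5 in order, and 14571, 2259, 4250, 3034 and 4639 CPM across the knock-out. Among knock-out libraries the order of this sum was the order of Atoh1. In wild type, library 3 was highest for both, but library 2, with 10.7 CPM of Atoh1, had the lowest sum, and library 5, with the lowest Atoh1, had a higher sum than library 1. The sum of wild-type library 3 also exceeded that of 4 of 5 knock-out libraries, 3 of which had more Atoh1. All 10 goblet markers had a positive log2 fold change at 14 days, with a median of 0.72 beside 0.01 over all genes. An unadjusted p under 0.05 was found for 3 of them, 1 of which is Atoh1 itself, beside 3.99% of all genes, and none passed. The other 9 had a median of 0.65, with 2 at an unadjusted p under 0.05. These counts rested on single libraries: without knock-out library 1, 8 of the 10 were positive, with a median of 0.23 and 1 at an unadjusted p under 0.05, which leaves 0 of the other 9. Without wild-type library 3 the median was 1.11 and 8 of 10 had an unadjusted p under 0.05, beside 12.2% of all genes. Enteroendocrine markers were positive in 13 of 13 with a median of 0.36, tuft markers in 7 of 9 with 0.49, Paneth markers in 3 of 10 with -0.18 and enterocyte markers in 1 of 12 with -0.57. None of these passed either, and they too rested on single libraries. Without wild-type library 3 enterocyte markers were positive in 5 of 12, with a median of -0.10. Paneth markers were then positive in 10 of 10, with a median of 0.69. In that fit Paneth, enteroendocrine and tuft markers each had 6 at an unadjusted p under 0.05, beside 12.2% of all genes, and none passed. Without knock-out library 1 enteroendocrine markers were positive in 10 of 13, with a median of 0.13. At 2 days 8 of the 10 goblet markers were positive, with a median of 0.40 beside 0.01 over all genes, while Atoh1 had -0.43. An unadjusted p under 0.05 was found for 2, beside 4.91% of all genes, and none passed. Without knock-out library 2 at 2 days, 6 were positive, with a median of 0.19. Knock-out libraries 2 and 3 had the highest goblet sums at 2 days, at 1364 and 1069 CPM. Wild-type library 2, with the most Atoh1 at 2 days, had 677 CPM. The part of these cell types in the values of Atoh1 was not tested at either time.

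**Figure D3:**
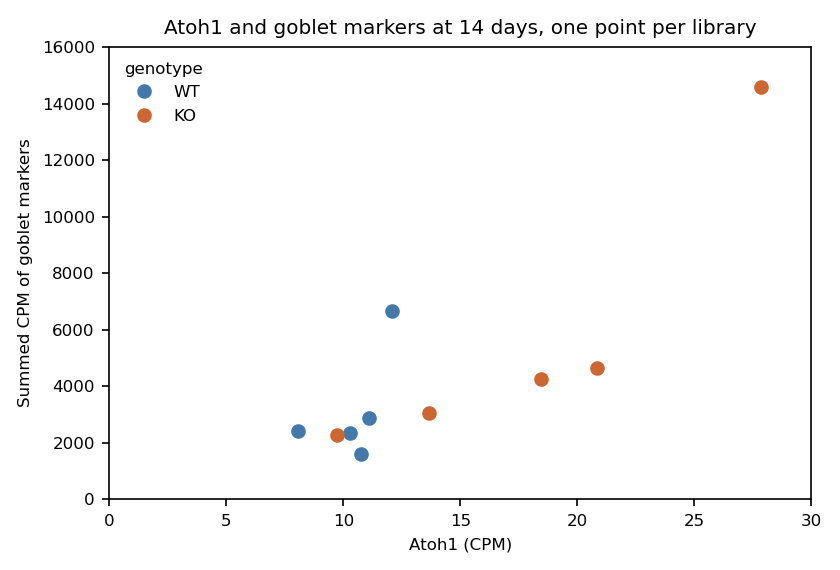
Atoh1 (horizontal axis, CPM) against the summed CPM of 10 goblet cell markers (vertical axis) in the 5 wild-type (WT) and 5 knock-out (KO) libraries at 14 days, 1 point per library. Knock-out library 1 has the highest value on both axes, at 27.8 and 14571 CPM.

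Gfi1 (ENSMUSG00000029275, chromosome 5, 107716657 to 107726036, minus strand) encodes a zinc finger repressor that steers secretory precursors towards goblet and Paneth cells. Wild-type libraries 1 to 4 held 0.579, 2.18, 0.921 and 1.67 CPM at 2 days, and knock-out libraries 0.0489, 4.84, 2.54 and 0.0614 CPM in the same order, where libraries 1 and 4 rest on 1 raw count each. The knock-out libraries thus held both the lowest and the highest values. The 14-day libraries held 0.788, 1.06, 0.288, 2.41 and 1.06 CPM in wild-type and 1.89, 1.39, 1.82, 1.77 and 2.28 CPM in knock-out libraries. Wild-type library 4 had the highest value, and the other 4 wild-type libraries lay below all knock-out libraries. The log2 fold change was 0.50 ± 1.09 (SE) at 2 days and 0.68 ± 0.50 (SE) at 14 days, and the exact permutation test at 14 days gave a two-sided p of 0.0952. At 2 days the direction rested on knock-out library 2, since without it the log2 fold change of Gfi1 was -0.59, and the difference of mean log2 CPM over all 8 libraries was -0.21. At 14 days it was 1.16 without wild-type library 4 and 0.45 without wild-type library 3.

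Dll4 followed Atoh1 closely from library to library at 2 days. Knock-out libraries 1 and 4, the lowest of the 8 for Atoh1, were also the lowest for Dll4 and for Gfi1, and the same libraries had the highest enterocyte marker sums, at 3651 and 1526 CPM against 871 to 1015 CPM in the other 6. All 12 enterocyte markers had a positive fold change at 2 days, with a median log2 value of 1.45 and 9 at an unadjusted p under 0.05, beside 4.91% of all genes, and none passed. Without knock-out library 1, 11 of 12 were positive, with a median of 0.44 and 2 at an unadjusted p under 0.05. Over the 8 libraries Pearson's r of Atoh1 and Dll4 was 0.952 and Spearman's rho 0.952 (exact permutation p = 0.000496 and 0.00114, adjusted 0.0169 and 0.0388 by Benjamini-Hochberg over 34 relations). Without the 2 libraries farthest from the median of Atoh1, r was 0.867, and with each genotype set to its own mean it was 0.941. Of the 34 relations, those of Atoh1 and Hes1 with the other genes within each time, it was the 1 that passed. Correlations of Atoh1 with all other genes at 2 days were not computed, so the share of genes as close as Dll4 is not known. At 14 days r of Atoh1 and Dll4 was 0.282 over 10 libraries and rho 0.200 (permutation p = 0.433 and 0.588, adjusted 0.687 and 0.825), and r was -0.522 without the 2 farthest libraries. The difference between the times was not tested. All points share the scaling of their library, and the markers of other cell types named above differ between the same libraries, whose part was not tested.

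**Figure D4:**
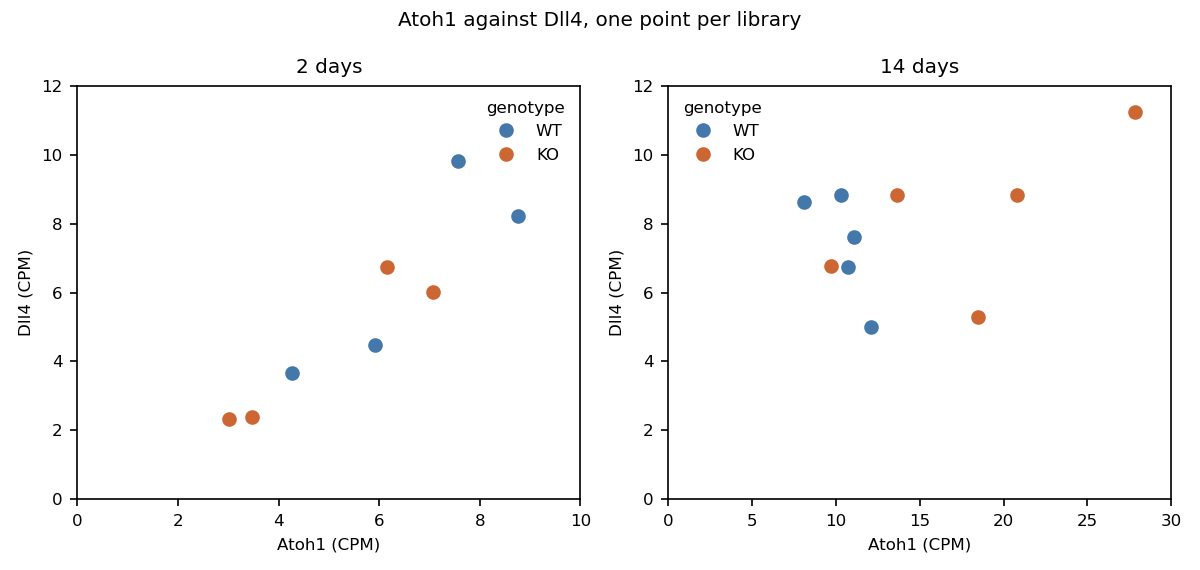
Atoh1 (horizontal axis, CPM) against Dll4 (vertical axis, CPM) at 2 days (left, 8 libraries) and 14 days (right, 10 libraries), 1 point per library, wild type (WT) and knock-out (KO) in separate colours. The points lie along a line at 2 days, from 3.01 and 2.33 CPM in knock-out library 4 upwards, and show no such line at 14 days.

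Atoh1 and Hes1, the opposed arms of the switch, gave no negative correlation at either time. Pearson's r was 0.317 over the 8 libraries at 2 days and 0.138 over the 10 at 14 days (permutation p = 0.444 and 0.702, adjusted 0.687 and 0.885), and Spearman's rho was 0.357 and 0.139 (permutation p = 0.389 and 0.705). Without the 2 farthest libraries r was 0.266 and 0.293. These are correlations between bulk libraries of many cells, which cannot decide whether the 2 genes oppose each other within single cells. Intervals of r were not computed. Hes1 had a negative r with Dll1 and Notch2 at 14 days, of -0.733 and -0.740 (permutation p = 0.0160 and 0.0150, adjusted 0.182 for both), with rho of -0.697 and -0.612 (permutation p = 0.0306 and 0.0673). These did not pass, and without the 2 farthest libraries r was -0.437 and -0.252. At 2 days the r of Hes1 with Dll1 was 0.781 and rho 0.690 (exact permutation p = 0.0222 and 0.0694, adjusted 0.188 and 0.467), and r was 0.488 without the 2 farthest libraries. Hes1 and Notch1 had an r of 0.762 and a rho of 0.690 at 2 days (exact permutation p = 0.0276 and 0.0694, adjusted 0.188 and 0.467), with r of 0.477 without the 2 farthest libraries. For Hes1 and Notch2 r was 0.660 and rho 0.571 (exact permutation p = 0.0735 and 0.151, adjusted 0.328 and 0.467), with r of 0.199 without them. None of these 3 passed.

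By a rule of likeness over all 18 libraries, the genes whose deviations from the 4 group means were most like those of Atoh1 were Usp54, Ccl9 and Impdh1, with r of 0.799, 0.777 and 0.764. Those most like Hes1 were Gatad2b, Chmp2a and Dazap1, with r of 0.896, 0.836 and 0.835. These are the highest of 8935 genes compared and are given as a description.

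Set on a scale per kilobase of exon (RPKM), Hes1 was the highest of the 10 in every group, at 58.4 ± 12.1 in wild type at 2 days (SD, n = 4) and 159 ± 44.4 at 14 days (SD, n = 5), above every library of the next gene. In wild type at 2 days Notch1 followed at 11.6 ± 2.63 RPKM and Notch2 at 6.60 ± 0.663, each with all libraries above the next gene. Atoh1, Jag1, Dll1 and Dll4, at 3.13, 2.90, 2.36 and 1.70 RPKM, overlapped in turn, as did Dll4 and Rbpj at 0.910. Gfi1 and Hey1 were lowest, at 0.420 and 0.340 RPKM, and overlapped. In wild type at 14 days the receptors had moved down the order: Notch2 and Notch1, at 1.28 and 1.22 RPKM, ranked the sixth and the seventh and overlapped with Dll4 above and Rbpj below. The knock-out had Hes1 first and Hey1 last at both times as well. At 14 days Atoh1 ranked second in both genotypes, at 4.93 ± 0.70 RPKM in wild type and 8.53 ± 3.27 RPKM in the knock-out (SD, n = 5 each). In both it overlapped with Dll1, the next gene. The difference between the times varied with exon length, as given below, and its part in the order of these genes was not tested.

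The largest differences in these genes were between the times. In wild type, with all 18 libraries scaled together, Notch1 held 196 ± 43.4 CPM at 2 days (SD, n = 4) and 15.3 ± 4.38 CPM at 14 days (SD, n = 5), a log2 fold change of -3.67 ± 0.26 (SE, adjusted p = 4.06e-10 in the edgeR quasi-likelihood F-test, Benjamini-Hochberg adjusted). Notch2 fell from 84.3 ± 8.46 to 12.1 ± 3.48 CPM, by 2.79 ± 0.23 (SE) on the log2 scale (adjusted p = 2.77e-09, same test). Hes1 was higher at 14 days, at 286 ± 82.8 against 141 ± 28.9 CPM, a log2 fold change of 1.02 ± 0.24 (SE, adjusted p = 0.00123, same test). The remaining 7 did not pass, with Atoh1 at 0.23 ± 0.32 (SE), Rbpj at -0.22 ± 0.24 (SE) and Dll1 at 0.53 ± 0.27 (SE). For the 3 genes that passed, no wild-type library of one time overlapped the other time. How many of all genes had no such overlap was not counted. In the knock-out Hes1 overlapped between the times, with up to 180 CPM at 2 days and down to 176 CPM at 14 days. The 3 of 10 that passed stand against 53.4% of 15458 genes called in this comparison, 27.7% higher and 25.7% lower, and 58.6% at an unadjusted p under 0.05. The median log2 fold change of all genes was 0.12.

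The times are separate tables, and time, run and cohort cannot be told apart. The difference between them varied with the length of a gene's annotated exons: the median log2 fold change of all tested genes went from 1.27 for exon lengths up to 2000 bases to -0.58 above 10000 bases. Notch1 and Notch2 have 14232 and 10782 bases of exon. Among the 1297 tested genes above 10000 bases, 1 was lower than Notch1 and 18 (1.39%) were lower than Notch2. Rbpj, with 12750 bases, had -0.22. Hes1 has 2037 bases, and 31.3% of the 4635 genes of 2000 to 4000 bases were higher than it. The part of exon length in the differences of Notch1, Notch2 and Hes1 was not tested.

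**Figure D5:**
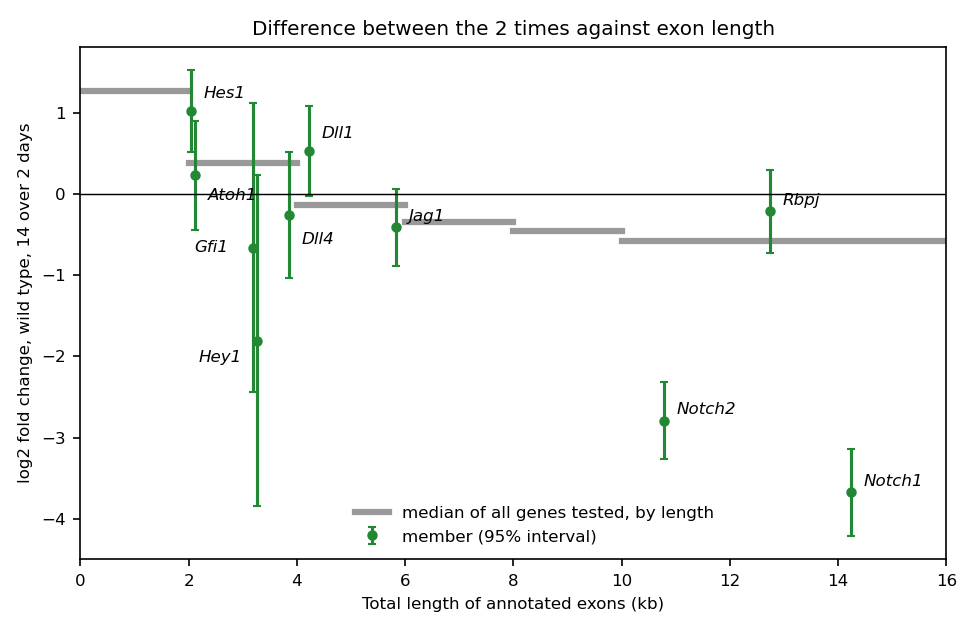
Log2 fold change of wild type at 14 days over 2 days (vertical axis, 95% intervals) against the total length of annotated exons (horizontal axis, kb) for the 10 genes, with grey bars for the median of all tested genes in each range of length, the last drawn to the edge of the axis. Notch1 and Notch2 lie far below the grey bar of their length, and the interval of Rbpj spans it.

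Other genes of the pathway were read from 5 lists, and none of their members passed between genotypes at either time. Of 29 tested genes of Notch processing, trafficking and modification, 13 had a positive fold change at 2 days and 11 of 28 at 14 days, with medians of -0.10 and -0.06 beside 0.01 over all genes. Pofut1, which adds the O-fucose that Notch needs to bind its ligands, had a log2 fold change of -0.52 ± 0.23 (SE) at 2 days, and Fbxw7, which marks active Notch for breakdown, -0.59 ± 0.29 (SE). Both values leaned on wild-type library 1, which had the lowest TMM scaling factor at 2 days, and were -0.33 for Pofut1 and -0.21 for Fbxw7 without it. Psen2, a catalytic subunit of gamma-secretase, held 5.05 ± 0.283 CPM in wild-type and 7.05 ± 1.22 CPM in knock-out libraries at 2 days (SD, n = 4 each). At 14 days it held 22.8 ± 1.81 and 20.1 ± 2.76 CPM (SD, n = 5 each). The difference in the genotype effect of Psen2 between times was -0.68 ± 0.27 (SE) and did not pass (adjusted p = 0.801 in the edgeR quasi-likelihood F-test, Benjamini-Hochberg adjusted).

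Of the nuclear complex and its co-repressors 8 of 21 were positive at 2 days and 10 of 23 at 14 days, with medians of -0.06 and -0.05. Maml1, a Mastermind co-activator, held 19.6 ± 5.12 CPM in wild-type and 14.4 ± 1.94 CPM in knock-out libraries at 14 days (SD, n = 5 each). Its log2 fold change was -0.45 ± 0.21 (SE). Fhl1 of the same list went the other way at 14 days, at 1.91 ± 0.81 (SE), and was 0.94 without knock-out library 1. It had 1 to 20 raw counts in wild-type and 5 to 70 in knock-out libraries. Among target genes beyond the 10, 3 of 12 were tested at 2 days and 4 at 14 days. Olfm4, a stem cell gene that depends on Notch, had log2 fold changes of -0.28 ± 0.19 (SE) and 0.04 ± 0.23 (SE), and Nrarp, a feedback inhibitor of Notch, 0.20 ± 0.69 (SE) and -0.06 ± 0.50 (SE). Of the further ligands and receptors 3 of 8 were tested at 2 days and 4 at 14 days, among them Notch3, which also stands in the list of targets, at -0.22 ± 0.78 (SE) and 0.14 ± 0.56 (SE), and Jag2 at 0.35 ± 1.01 (SE) and -0.13 ± 0.52 (SE). The values of Nrarp, Notch3 and Jag2 at both times, and of Olfm4 at 14 days, took either sign as single libraries were left out.

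Of the secretory transcription factors beyond Atoh1 and Gfi1, 11 of 21 were positive at 2 days, with a median of 0.05, and 16 of 23 at 14 days, with a median of 0.21 beside 0.01 over all genes. Insm1, which drives enteroendocrine differentiation, held 2.96 ± 0.791 CPM in wild-type and 5.31 ± 2.35 CPM in knock-out libraries at 14 days (SD, n = 5 each). Its log2 fold change was 0.84 ± 0.37 (SE), and 0.59 without knock-out library 1. Gfi1b went the other way at 14 days, at -1.33 ± 0.76 (SE), and was -0.57 without wild-type library 3. It had 9 to 38 raw counts in wild-type and 1 to 10 in knock-out libraries. Foxa1, a factor of goblet and enteroendocrine cells, had -0.64 ± 0.27 (SE) at 2 days, and Nkx2-2, another enteroendocrine factor, -1.35 ± 0.70 (SE). Foxa3 was positive at 2 days, at 0.49 ± 0.27 (SE), and 0.30 without wild-type library 1. Averaged over both times Foxa1 had -0.39 ± 0.15 (SE), which did not pass. Without wild-type library 1 at 2 days the values of Foxa1 were -0.30 and -0.21. In that averaged comparison 0 of the 10 genes were called, and 1 gene, or 0.00647% of 15458, was called in the edgeR quasi-likelihood F-test, Benjamini-Hochberg adjusted. None of the 10 had an unadjusted p under 0.05 there, against 5.81% of all genes, and their averaged log2 fold changes ran from -0.47 for Hey1 to 0.59 for Gfi1.

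Between the times in wild type 13 of 29 processing genes were called lower and 4 higher, and 9 of 23 genes of the nuclear complex lower and 1 higher. Of the further ligands and receptors 2 of 5 were called higher and none lower, of the further targets 1 of 4 lower, which was Olfm4, and of the secretory factors 5 of 25 higher and 4 lower. The 2 among ligands and receptors were Cntn1 and Dner, both close to the limit of detection. Wild-type libraries held 0 raw counts of Cntn1 at 2 days and 1 to 23 at 14 days. For Dner they held 0 to 2 and 0 to 16. All genes stood at 27.7% higher and 25.7% lower, and the share called lower went from 7.75% for exon lengths up to 2000 bases to 50.6% above 10000 bases. The part of exon length in the counts of these lists was not tested. Furin, which cleaves the receptor during its transport to the cell surface, had a log2 fold change of -2.04 ± 0.20 (SE), the ubiquitin ligase Mib1, which activates ligands, -1.22 ± 0.14 (SE), and Ep300, a co-activator of the Notch complex, -2.25 ± 0.16 (SE). Psen2 had 1.74 ± 0.20 (SE) and Hes6, a HES protein that counters HES1, 1.84 ± 0.27 (SE). Olfm4 had -2.27 ± 0.23 (SE). These differences passed in the edgeR quasi-likelihood F-test, Benjamini-Hochberg adjusted, and as above time and table cannot be told apart.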

How the data were processed

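The deposited values are raw counts for Ensembl genes, one table for each time. STAR 2.4.2a, bcl2fastq 2.20.0.422 and the build GRCm38 are named per the submitters' processing notes. The sources used here do not give the counting program, its strand setting or the gene annotation, so values of Notch1, Dll1, Dll4 and Gfi1, whose exons overlap genes on the opposite strand, and of Notch2, which overlaps a gene on its own strand, are uncertain by those reads. Columns named WT, Dko and (at 2 days) Dmin were read as wild type, knock-out and knock-out, and libraries were numbered by their place in the table. Symbols, coordinates and exon lengths came from GENCODE M21.

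Each time was fitted alone with edgeR 4.0.16 in R 4.3.3 (filterByExpr with a minimum count of 10, TMM, quasi-likelihood F-test, Benjamini-Hochberg, called under 0.05). The averaged effect, the difference of effects and the difference between times came from 1 fit of all 18 libraries. Standard errors are the absolute log2 fold change over the square root of F. Exact tests used log2 CPM with a pseudocount of 0.5 and cannot go below 0.0286 at 2 days and 0.00794 at 14 days. Correlations used all pairings of 8 libraries or 100000 resamples of 10. Alternatives were RLE and upper-quartile scaling, mitochondrially encoded genes left out, no filter, a minimum count of 50, DESeq2 1.42.0, limma 3.58.1 voom, the fit of all libraries and leaving out each library. Chosen after seeing the data were the letter of the column name as a term, leaving out both libraries that stood apart, and leaving out each library for marker lists, other pathway genes and shares of all genes. The genes named beyond the 10 were up to 4 of smallest p per list and comparison and the 3 most like Atoh1 and Hes1. The 10 genes and the lists were chosen with earlier results of these data known.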

Additional observations from a re-analysis of the deposited data

How the results depend on the processing

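No alternative called any of the 10 genes between genotypes (0 of 314 values), nor did leaving out 1 library (0 of 530). Counts of all genes called changed as follows. Without a filter 7 genes were called at 2 days, 2 at 14 days, 98 for the difference of effects and 40 for the averaged effect. DESeq2 called 13, 1, 13 and 7, and the fit of all libraries called 2 at 2 days. The averaged effect had 2 calls when both libraries that stood apart were left out, an alternative chosen after seeing the data. Over fits that left out 1 library the counts ran from 0 to 1 at 2 days, 0 to 1 for the difference of effects, 1 to 2 for the averaged effect and 7660 to 8429 for the times. The higher counts came without wild-type library 3 at 2 days (2 days, difference and average), knock-out library 1 at 2 days (difference and average), and knock-out library 4 at 2 days, wild-type library 3 or the library labelled knock-out 5 at 14 days (average). The cause of these changes was not tested. No paired analysis was possible because the columns carry no replicate numbers from the labels.

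Log2 fold changes of the 10 genes turned sign in 22 of 392 values under the alternatives and in 55 of 710 without 1 library. For Hes1 at 2 days they were 0.032 with upper-quartile scaling and 0.0069 with a minimum count of 50. For Hes1 at 14 days they were -0.0017 with RLE scaling, -0.0015 with DESeq2, -0.0096 with upper-quartile scaling, -0.047 without a filter, -0.014 in the fit of all libraries, -0.011 with the column letter as a term (chosen after seeing the data) and -0.0051 with limma voom. For the difference of effects Hes1 had 0.026 with RLE scaling and with DESeq2, 0.035 with limma voom and 0.014 without mitochondrially encoded genes, and for the averaged effect 0.13 without both libraries that stood apart. At 14 days Notch2 had -0.041 without a filter and -0.028 with limma voom, and Jag1 -0.042 without a filter and -0.0026 in the fit of all libraries. The averaged effect of Dll1 was -0.0034 without a filter and -0.0087 with limma voom. Gfi1 at 2 days was -0.63 with limma voom, and the difference of effects of Notch2 was -0.040 without both libraries that stood apart.

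Leaving out 1 library, Hes1 ran from -0.15 to 0.16 at 2 days, -0.11 to 0.18 at 14 days, -0.17 to 0.18 for the difference and -0.080 to 0.084 for the average. Gfi1 ran from -0.59 to 0.90 at 2 days and -0.24 to 1.27 for the difference, Dll1 from -0.24 to 0.034 at 14 days and -0.073 to 0.083 for the average. Notch2 and Jag1 at 14 days ran from -0.16 to 0.15 and -0.045 to 0.081, and the difference for Notch1 from -0.20 to 0.064. Atoh1 at 14 days kept a positive sign in all these fits, from 0.58 to 0.95, and its adjusted p was at least 0.702 over 9 alternatives and 0.230 without wild-type library 3. Dll1 passed between times with upper-quartile scaling (0.67) and without wild-type library 3 at 14 days (0.70), and Jag1 without wild-type library 1 at 2 days (-0.61) and without both libraries that stood apart (-0.61). Hey1 and Gfi1 had as few as 0 and 1 raw counts in a library and were not tested at a minimum count of 50.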
